A study of Mus musculus with 40 samples.

Results

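The 10 genes described here are targets of the transcription factor p53 and kinases of the stress response. They are Bbc3, Cdkn1a, Mdm2, Ccng1, Plk2, Plk3, Bax, Gadd45a, Gadd45b and Gadd45g. They were taken by symbol from 4 expression tables that together list 20078 gene symbols, and all 10 were found in each table. The 2 polo-like kinases, Plk2 and Plk3, are the only kinases among them, and p53 activity itself was not measured. The genes were selected on their nicotine-control differences in these same tables, so those differences, and the adjusted p-values of the fits over whole tables, are given as a description and nothing is supported with them.

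The samples came from sons and daughters, all C57BL/6J, of male mice that had received nicotine or the control treatment (DMSO in the table headers). The offspring themselves are labelled only by the father's exposure, with no dose, duration or age in the sources used here. Liver and gWAT, the gonadal depot of white fat, were profiled by 3′-tag RNA sequencing, which counts polyadenylated transcripts from a short read near their 3′ end. Each of the 4 tables holds 1 tissue of 1 sex, with 5 nicotine libraries and 5 control libraries, except male gWAT with 5 nicotine libraries and 4 control columns. No label ties a sample to an animal, litter or father, so each p-value reflects only the spread between these samples, and that spread may be technical.

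p53 is a transcription factor that is held at a low level by Mdm2, which marks it for degradation, and that accumulates after DNA damage and other stress. It then switches on genes that halt the cell cycle, such as Cdkn1a, genes that start apoptosis, such as Bbc3 and Bax, and Mdm2 itself, which closes a feedback loop. Cdkn1a, Plk2, Plk3 and the Gadd45 genes also respond to growth factor, hormone and inflammatory signals without p53, and in liver several of them change with feeding, regeneration and injury.

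The libraries held 1543208 to 2239073 reads assigned to genes. Hepatocyte markers (5 of 5 listed) dominated the liver tables and adipocyte markers (5 of 5 listed) the gWAT tables. In male liver, 2 of the nicotine libraries, numbers 1 and 5, differed from the other 8 libraries. Their male-biased liver markers summed to 1145 and 1676 normalized counts against 4206 to 8379, and their proliferation markers to 174 and 103 against 12.6 to 25.4. Also in male liver, nicotine library 2 carried pancreas acinar transcripts (6521) and nicotine library 4 skeletal muscle transcripts (4862). Muscle transcripts were also present in nicotine library 5 (257) and control library 4 (139) of female liver. In female gWAT they were highest in control library 2 (18966), followed by nicotine library 2 (1118), control library 1 (787) and nicotine library 5 (548). Female gWAT nicotine libraries had reads for 14632 to 15927 genes and control libraries for 15877 to 16190. Their read totals were 1788633 to 2239073 and 1783822 to 1885206. The part of this in the nicotine differences of that table was not tested. In male gWAT, epididymis markers were highest in nicotine library 1 (8658) and control column 1 (10990). Values are the authors' DESeq2-normalized counts. A log2 change is the nicotine mean minus the control mean of log2(normalized count + 1), a scale that understates changes of weakly expressed genes, and a fold is the ratio of 2 group means. limma was run over all genes of a table with a mean of 10 or more, which is the set called tested genes, and a gene is called where its adjusted p is under 0.05.

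Bbc3 encodes PUMA, a BH3-only protein that binds the anti-apoptotic BCL-2 proteins and triggers apoptosis, and it lies on chromosome 7 at chr7:16308393-16318205 on the plus strand (mm10). It fell in the female liver and in the female gWAT of nicotine offspring, and it had the lower mean in nicotine libraries of all 4 tables. In female liver the nicotine libraries held 40.3, 31.4, 75.2, 28.4 and 64.0 normalized counts, and the control libraries held 154, 97.4, 116, 104 and 142. Every nicotine library was below every control library, which was the case in that direction for 2.49% of the tested genes. The mean fell to 47.9 ± 20.7 in nicotine, against 123 ± 24.6 in control (SD, n = 5 each), 2.56-fold lower, with a log2 change of -1.42 ± 0.22 (SE, limma adjusted p = 0.000912). It was the only one of the 7 tested members called in female liver, where 3.28% of all tested genes were called.

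In female gWAT the nicotine libraries held 21.8, 41.1, 50.007, 46.9 and 19.7 normalized counts of Bbc3, against 90.2, 43.1, 83.0, 95.3 and 61.3 in control libraries. The groups overlapped through control library 2, at 43.1, which also carried the muscle transcripts, and without it the log2 change was -1.26 (limma adjusted p = 0.00836). That was the largest fall among the fits without a single library, which ran from -1.26 to -0.89. Over all alternatives the highest adjusted p was 0.0485 (limma, edgeR or DESeq2). Bbc3 averaged 35.9 ± 14.2 in nicotine and 74.6 ± 21.9 in control (SD, n = 5 each), 2.08-fold lower in nicotine, with a log2 change of -1.08 ± 0.30 (SE, limma adjusted p = 0.0185). It was again the only member called, of 8 tested, in a table where 25.2% of tested genes were called. The adjusted p in the authors' deposited table was 0.00977 for female gWAT, where that table calls 18.9% of genes, and 4.17e-07 for female liver, where it calls 3.73%.

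In the males the Bbc3 groups overlapped in both tissues. Male liver held 57.4, 35.2, 27.2, 65.3 and 54.0 in nicotine libraries, against 60.3, 50.6, 71.8, 94.9 and 47.0 in control libraries, with a log2 change of -0.46 ± 0.25 (SE, limma adjusted p = 0.425). Male gWAT held 35.5, 44.2, 71.6, 52.6 and 60.003 in nicotine libraries, against 40.8, 96.5, 79.0 and 52.97 in control columns, with a log2 change of -0.31 ± 0.29 (SE, limma adjusted p = 1.00). Neither male comparison passed the threshold.

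**Figure D1:**
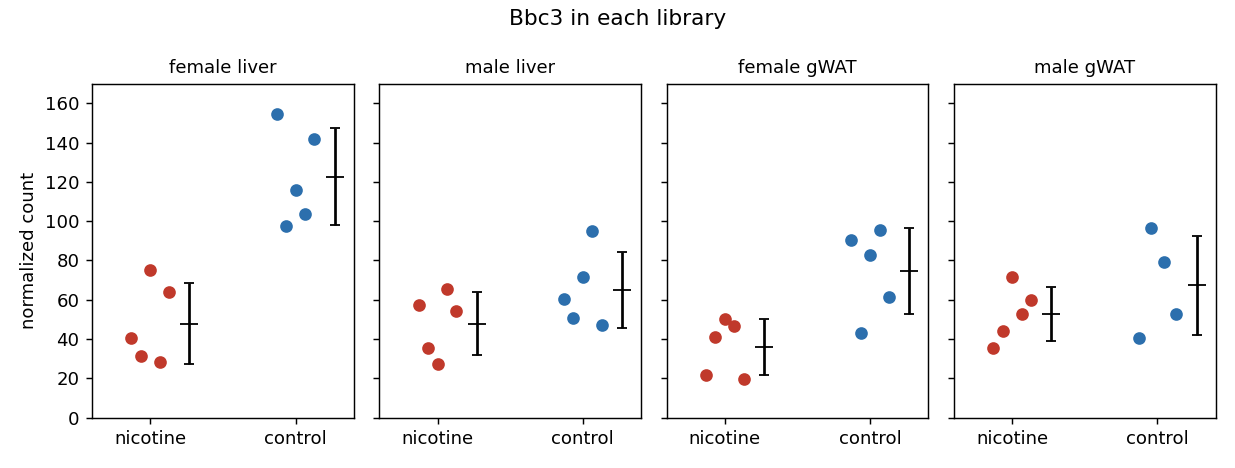
Bbc3 in normalized counts in each library of the 4 tables, with nicotine libraries in red, control libraries in blue and black bars for the mean and SD of each group (n = 5, and 4 control columns in male gWAT). In female liver all 5 nicotine libraries lie below all 5 control libraries, while in the other 3 tables the groups overlap.

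Some marker sums of other cell types were also lower in the nicotine libraries of the female tables, and others were not. In female liver, endothelial markers (4 of 4 listed, none at 0) summed to 440 to 536 in nicotine libraries and 625 to 655 in control libraries, without overlap. The immediate early genes (12 of 15 listed), which mark no cell type, summed to 289 to 749 in nicotine libraries and 494 to 994 in control libraries, with overlap. Macrophage sums overlapped there, at 236 to 483 in nicotine and 279 to 416 in control libraries. So did fibroblast and stellate sums, at 598 to 901 and 713 to 917. In female gWAT, macrophage markers (5 of 6 listed, Clec4f not listed) summed to 44.5 to 153 in nicotine libraries, against 212 to 425 in control libraries. Endothelial sums in female gWAT overlapped and had the higher median in nicotine, at 752 to 1447 in nicotine and 478 to 1107 in control libraries. The part of these shifts in the Bbc3 difference was not tested, and in bulk tissue fewer cells of a type and less RNA per cell cannot be told apart. Without nicotine library 5 and control library 4, the 2 female liver libraries with muscle transcripts, the log2 change of Bbc3 was -1.60 (limma adjusted p = 0.00148).

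Bax, the pore-forming effector that permeabilizes the mitochondrial outer membrane downstream of Bbc3, was low in liver, at 1.09 to 4.75 normalized counts in nicotine and 0.91 to 5.75 in control libraries of females. Male liver held 3.11 to 8.83 in nicotine and 1.98 to 6.20 in control libraries, and Bax was left out of both liver fits because its mean was under 10. In female gWAT it averaged 8.61 ± 2.79 in nicotine and 12.8 ± 6.82 in control (SD, n = 5 each). In male gWAT it averaged 15.4 ± 4.01 in nicotine (SD, n = 5) and 17.9 ± 5.60 in control (SD, n = 4). The groups overlapped in all 4 tables, and neither gWAT difference passed the limma threshold.

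Cdkn1a encodes p21, an inhibitor of cyclin-dependent kinases that halts the cell cycle, and lies at chr17:29090976-29100727 on the plus strand (mm10). In male liver the nicotine libraries held 128, 7.26, 4.19, 16.6 and 135 normalized counts, and the control libraries held 4.94, 4.22, 4.43, 3.91 and 3.36. Nicotine libraries 1 and 5 were far above the rest, nicotine libraries 2 and 4 were above every control, and nicotine library 3 was within the control range. The mean was 58.2 ± 67.1 in nicotine and 4.17 ± 0.59 in control (SD, n = 5 each), a 14.0-fold ratio of means. The log2 change was 2.37 ± 0.79 (SE, limma adjusted p = 0.224), so Cdkn1a was not called in a table where 0.055% of tested genes were. The controls rest on 3 to 5 reads per library.

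Without nicotine libraries 1 and 5, Cdkn1a averaged 9.36 ± 6.49 in the 3 remaining nicotine libraries (SD) and 4.17 ± 0.59 in the 5 controls (SD). The log2 change was then 0.82 (limma adjusted p = 0.548), in a fit with no filter on low values, since the gene no longer reached a mean of 10. The authors' deposited table gives a log2 fold change of 1.00 with an adjusted p of 0.0480 for Cdkn1a in male liver, where it calls 1.46% of genes. DESeq2 run here on the recovered reads gave 3.84 (adjusted p = 0.0114), calling 2.06% of genes, and edgeR gave 3.82 (adjusted p = 0.135). The call therefore differed between tools, and the size rested on 2 libraries.

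Female liver showed another picture for Cdkn1a. The nicotine libraries held 8.85, 14.3, 17.2, 5.45 and 17.6 normalized counts, and the control libraries held 24.3, 32.8, 10.5, 20.9 and 13.6. The mean was 12.7 ± 5.33 in nicotine and 20.4 ± 8.82 in control (SD, n = 5 each), with overlapping groups and a log2 change of -0.65 ± 0.33 (SE, limma adjusted p = 0.314). In gWAT the groups overlapped in both sexes. Female gWAT averaged 48.0 ± 18.3 in nicotine and 56.9 ± 13.8 in control (SD, n = 5 each). Male gWAT averaged 53.7 ± 30.7 in nicotine (SD, n = 5) and 39.8 ± 8.58 in control (SD, n = 4).

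**Figure D2:**
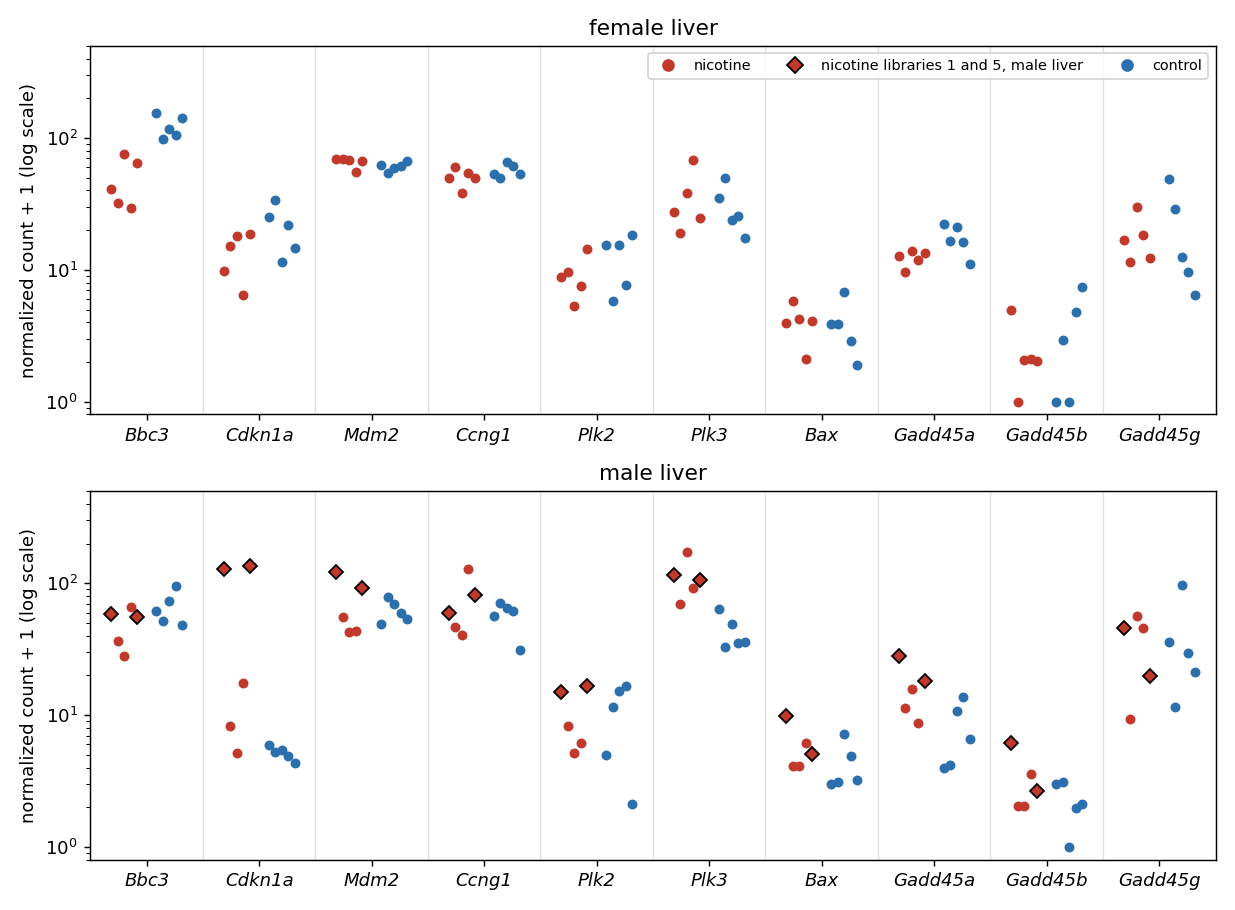
Normalized count + 1 of the 10 genes in every liver library on a log axis, with females above and males below, nicotine libraries in red to the left of control libraries in blue, and black-edged diamonds for nicotine libraries 1 and 5 of male liver. Bbc3 separates the groups in female liver and Plk3 in male liver, and the 2 diamonds of Cdkn1a lie at 128 and 135 normalized counts against 3.36 to 16.6 in the other 8 male libraries.

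Mdm2 and Gadd45a were also highest in nicotine libraries 1 and 5 of male liver, as were 11.2% of all tested genes. Mdm2 encodes the ubiquitin ligase that targets p53 for degradation, and it held 121 and 90.9 normalized counts in these libraries against 41.9 to 78.0 in the other 8. Gadd45a encodes a small stress sensor that binds PCNA and p21 and activates the kinase Map3k4, and it held 27.2 and 17.2 against 2.97 to 14.7. Cdkn1a and Gadd45a reached the mean of 10 required for a test only through these libraries: 7 members were tested with them and 5 without them. The 2 libraries were set apart by their marker sums, so these values describe 2 libraries and carry no test. In the same libraries, macrophage markers (6 of 6 listed) summed to 470 and 455 against 198 to 315, female-biased liver markers (3 of 5 listed) to 334 and 230 against 8.90 to 33.2, hepatocyte markers to 51097 and 52036 against 64281 to 77389, and immediate early genes (13 of 15 listed) to 845 and 730 against 233 to 429. Fibroblast and stellate cell markers (4 of 4 listed) summed to 1537 and 1329 in them, to 1303 in nicotine library 4, and to 523 to 659 in the other 7 libraries. The part of these shifts in the levels of Cdkn1a, Mdm2 and Gadd45a was not tested.

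The promoters of these 3 genes and of Bbc3 are shown because Cdkn1a, Mdm2 and Gadd45a were highest in the same libraries while Bbc3 was not. The windows are RefSeq sequences of build GRCm38.p6, from 250 bases before to 50 bases after an annotated transcription start, read 5′ to 3′ on the gene's strand. Cdkn1a has 2 such windows and Bbc3 has 3, and 1 of each is shown. Capitals mark each match to the p53 half-site, the 10-base consensus of which p53 binds 2 copies. The windows are chr17:29090729-29091028 (plus) for Cdkn1a, chr10:117710709-117711008 (minus) for Mdm2, chr6:67037358-67037657 (minus) for Gadd45a and chr7:16309333-16309632 (plus) for Bbc3.
Cdkn1a: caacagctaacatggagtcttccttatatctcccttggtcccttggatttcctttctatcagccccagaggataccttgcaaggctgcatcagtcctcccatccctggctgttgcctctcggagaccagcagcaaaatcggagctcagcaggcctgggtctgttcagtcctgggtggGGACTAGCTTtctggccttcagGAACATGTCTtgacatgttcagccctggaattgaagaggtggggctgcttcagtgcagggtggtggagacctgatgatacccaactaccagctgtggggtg
Mdm2: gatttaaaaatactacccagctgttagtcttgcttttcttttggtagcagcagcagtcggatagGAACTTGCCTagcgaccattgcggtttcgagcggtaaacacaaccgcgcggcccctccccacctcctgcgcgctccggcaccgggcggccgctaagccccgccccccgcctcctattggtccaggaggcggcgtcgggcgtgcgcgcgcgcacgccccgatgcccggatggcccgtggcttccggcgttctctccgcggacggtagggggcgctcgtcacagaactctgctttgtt
Gadd45a: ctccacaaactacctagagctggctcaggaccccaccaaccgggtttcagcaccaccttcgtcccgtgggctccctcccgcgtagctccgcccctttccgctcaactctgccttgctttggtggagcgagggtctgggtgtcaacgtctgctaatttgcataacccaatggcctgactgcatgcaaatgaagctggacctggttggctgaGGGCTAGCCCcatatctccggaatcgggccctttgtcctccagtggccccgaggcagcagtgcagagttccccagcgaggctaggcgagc
Bbc3: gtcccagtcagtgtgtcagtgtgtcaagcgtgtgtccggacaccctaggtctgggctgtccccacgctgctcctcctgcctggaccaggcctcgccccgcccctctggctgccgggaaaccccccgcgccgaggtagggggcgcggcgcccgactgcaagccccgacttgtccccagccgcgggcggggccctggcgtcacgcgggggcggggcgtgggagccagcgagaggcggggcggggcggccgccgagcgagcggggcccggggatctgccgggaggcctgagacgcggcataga

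The half-site was searched by name as the standard consensus, which reads the same on both strands. All 10 genes had at least 1 RefSeq window, 13 in all, and 5 genes had a match. Cdkn1a had 2 matches in 1 of its 2 windows, the one shown, and none in the other. They started 73 and 51 bases before the transcription start of that window and were separated by 12 bases. Gadd45a had 1 match, starting 40 bases before its transcription start. Ccng1, Mdm2 and Bax had 1 each, starting 185, 186 and 201 bases before theirs. Of 32851 mouse promoter windows of this length, 8.36% held at least 1 match and 0.359% held 2 or more. The 3 windows of Bbc3 and the windows of Plk2, Plk3, Gadd45b and Gadd45g held none, which says only that these letters are not in these windows. A match is a description of sequence and not a bound site. Ccng1 and Bax had a match and were not highest in both nicotine libraries 1 and 5 of male liver. Whether the matches relate to the levels in those libraries was not tested.

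Other genes that p53 is known to activate were read in the same way in male liver. Of 16 tested, Zmat3, Apaf1, Btg2 and Gdf15 were highest in both nicotine libraries 1 and 5, and Ei24 was lowest in both. Over all tested genes of male liver, 11.2% were highest in both and 14.8% lowest in both. Btg2, an antiproliferative protein, held 130 and 129 normalized counts in these libraries against 36.6 to 78.1 in the other 8. Gdf15, a stress hormone of the TGF-beta superfamily, held 72.8 and 115 against 2.66 to 32.0. Apaf1, the scaffold of the apoptosome, held 37.5 and 36.9 against 9.49 to 23.8, and Zmat3, an RNA-binding protein, 38.3 and 40.1 against 15.7 to 28.0. Trp53inp1, a p53-induced cofactor, held 152 and 132 against 41.9 to 84.1. It was the 1 of 9 tested regulators highest in both (11.1%), near the share over all tested genes. Immediate early genes, which growth factors and stress induce without new protein synthesis, were highest in both for 5 of 8 tested, of which Btg1 reached the mean of 10 only through these libraries. Trp53 itself, the gene of p53, averaged 7.97 ± 6.99 in nicotine and 5.80 ± 4.11 in control libraries of male liver (SD, n = 5 each), under the level required for a test.

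**Figure D3:**
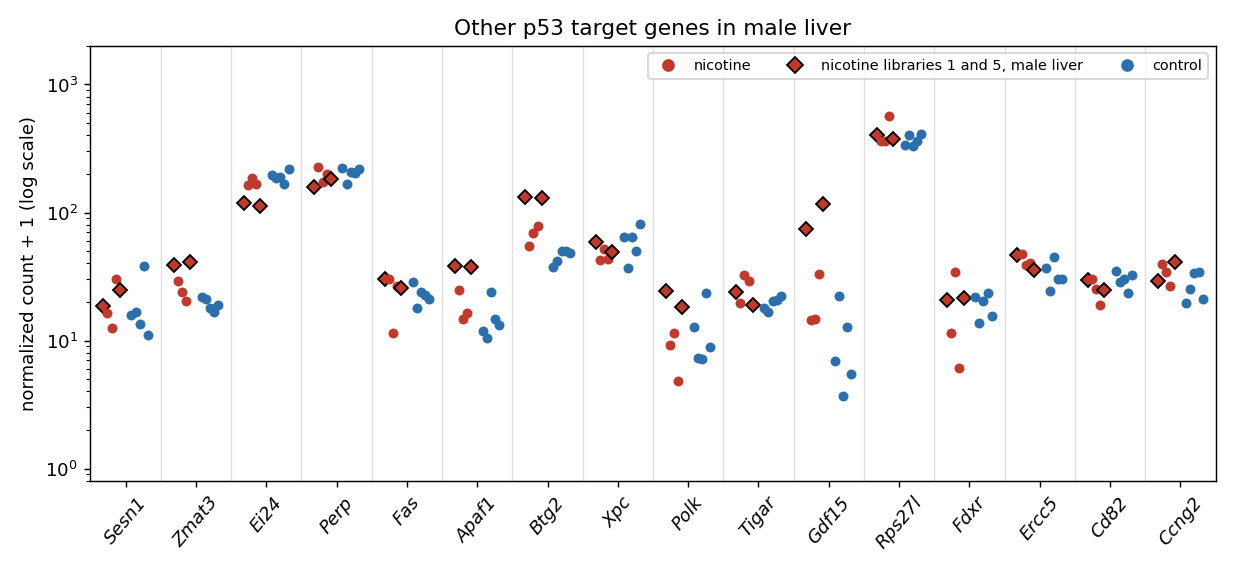
Normalized count + 1, on a log axis, of the 16 other p53 target genes with a mean of 10 or more in male liver, with nicotine libraries in red to the left of control libraries in blue and black-edged diamonds for nicotine libraries 1 and 5. The diamonds are the 2 highest points for Zmat3, Apaf1, Btg2 and Gdf15 and the 2 lowest for Ei24.

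Plk3, a stress-responsive polo-like kinase that phosphorylates p53 and cell cycle proteins, lies at chr4:117128655-117133963 on the minus strand (mm10). In male liver its nicotine libraries held 115, 68.4, 172, 90.9 and 106 normalized counts, and its control libraries held 63.3, 31.6, 47.9, 34.2 and 34.7. Every nicotine library was above every control library, which was the case in that direction for 1.31% of tested genes. Unlike Cdkn1a, the highest value was in nicotine library 3 and not in libraries 1 or 5. Plk3 averaged 110.3 ± 38.6 in nicotine and 42.4 ± 13.3 in control (SD, n = 5 each), a 2.60-fold ratio of means. The log2 change was 1.34 ± 0.24 (SE, limma adjusted p = 0.0989), which did not pass the threshold. Without nicotine libraries 1 and 5 it was 1.30 (limma adjusted p = 0.0809), and the mean of the 3 remaining nicotine libraries was 110.3.

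The call of Plk3 differed between methods. It was called in the authors' deposited table, with a log2 fold change of 1.15 and an adjusted p of 0.000706, and by DESeq2 on the recovered reads, with 1.39 and an adjusted p of 4.80e-04. edgeR gave 1.38 (adjusted p = 0.120). Leaving out nicotine library 2, which carries the pancreas acinar transcripts, brought limma to 1.50 (adjusted p = 0.0278). No other fit without a single library called Plk3, and the highest limma adjusted p over the alternatives was 0.2275. In female liver Plk3 overlapped between groups, at 18.1 to 67.6 in nicotine libraries and 16.4 to 49.2 in control libraries, with a log2 change of 0.17 ± 0.30 (SE, limma adjusted p = 0.820). In gWAT Plk3 was at 0 to 7.25 in nicotine and 0 to 6.86 in control libraries of females, and at 0.94 to 10.7 in nicotine and 1.74 to 6.37 in control libraries of males, too low for a test in either.

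Plk2, the polo-like kinase known as serum-inducible kinase, was tested only in gWAT. Its nicotine libraries in female gWAT held 11.5, 3.62, 4.55, 24.0 and 9.38 normalized counts, and its control libraries held 15.7, 24.7, 14.0, 21.1 and 15.7. Of the 5 nicotine libraries, 4 were below every control and nicotine library 4 lay near the highest control. The log2 change was -0.97 ± 0.44 (SE, limma adjusted p = 0.121), and without nicotine library 4 it was -1.31 (adjusted p = 0.0378). In male gWAT Plk2 averaged 14.8 ± 7.13 in nicotine (SD, n = 5) and 18.1 ± 4.00 in control (SD, n = 4). In liver its mean over the table was under 10, with 8.14 ± 3.37 in nicotine and 11.5 ± 5.46 in control females, and at 9.22 ± 5.22 in nicotine and 9.09 ± 6.35 in control males (SD, n = 5 each).

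Mdm2 and Ccng1, which act on p53 itself, passed the threshold in no table. Ccng1 encodes cyclin G1, which brings the phosphatase PP2A to Mdm2. In female liver Mdm2 averaged 64.9 ± 5.91 in nicotine and 59.8 ± 4.82 in control (SD, n = 5 each), with a log2 change of 0.11 ± 0.12 (SE, limma adjusted p = 0.682). Ccng1 averaged 49.5 ± 7.87 in nicotine and 56.1 ± 6.67 in control (SD, n = 5 each), with a log2 change of -0.18 ± 0.14 (SE, limma adjusted p = 0.554). In the other tables the log2 changes of Mdm2 lay between -0.02 and 0.09, and those of Ccng1 between -0.11 and 0.25, and none passed the threshold. Without nicotine libraries 1 and 5 the log2 change of Mdm2 in male liver was -0.38 (limma adjusted p = 0.439), against 0.09 with them.

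The Gadd45 genes encode stress sensors that couple to the p38 and JNK kinases, and none passed the threshold in any table. The male liver nicotine libraries held 27.2, 10.4, 14.7, 7.68 and 17.2 normalized counts of Gadd45a, against 2.97, 3.16, 9.75, 12.7 and 5.60 in control libraries. The 3 highest libraries were nicotine libraries, the lower ranges overlapped, and the log2 change was 1.12 ± 0.44 (SE, limma adjusted p = 0.279). In female liver Gadd45a averaged 11.3 ± 1.71 in nicotine and 16.4 ± 4.52 in control (SD, n = 5 each), with a log2 change of -0.47 ± 0.25 (SE, limma adjusted p = 0.349). In female gWAT it averaged 29.0 ± 17.9 in nicotine and 45.9 ± 31.9 in control (SD, n = 5 each), and in male gWAT 22.9 ± 7.28 in nicotine (SD, n = 5) and 19.3 ± 5.55 in control (SD, n = 4). Gadd45a overlaps the antisense transcript E230016M11Rik, and without stated strand use their reads cannot be told apart; that gene reached at most 10.5 normalized counts in any library.

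Gadd45g, a relative of Gadd45a, spread widely within groups. It averaged 16.8 ± 7.42 in nicotine and 20.2 ± 17.6 in control libraries of female liver, and 34.5 ± 19.9 in nicotine and 38.1 ± 34.0 in control libraries of male liver (SD, n = 5 each). In female gWAT it averaged 31.8 ± 13.5 in nicotine and 33.2 ± 11.9 in control (SD, n = 5 each), and in male gWAT 61.1 ± 23.1 in nicotine (SD, n = 5) and 41.7 ± 21.3 in control (SD, n = 4). Gadd45b, a member of the same family, had a mean under 10 in each of the 4 tables and was not tested. Its highest values were 11.5 in nicotine and 17.4 in control libraries, both of female gWAT, where 4 of 5 nicotine libraries were below every control.

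**Figure D4:**
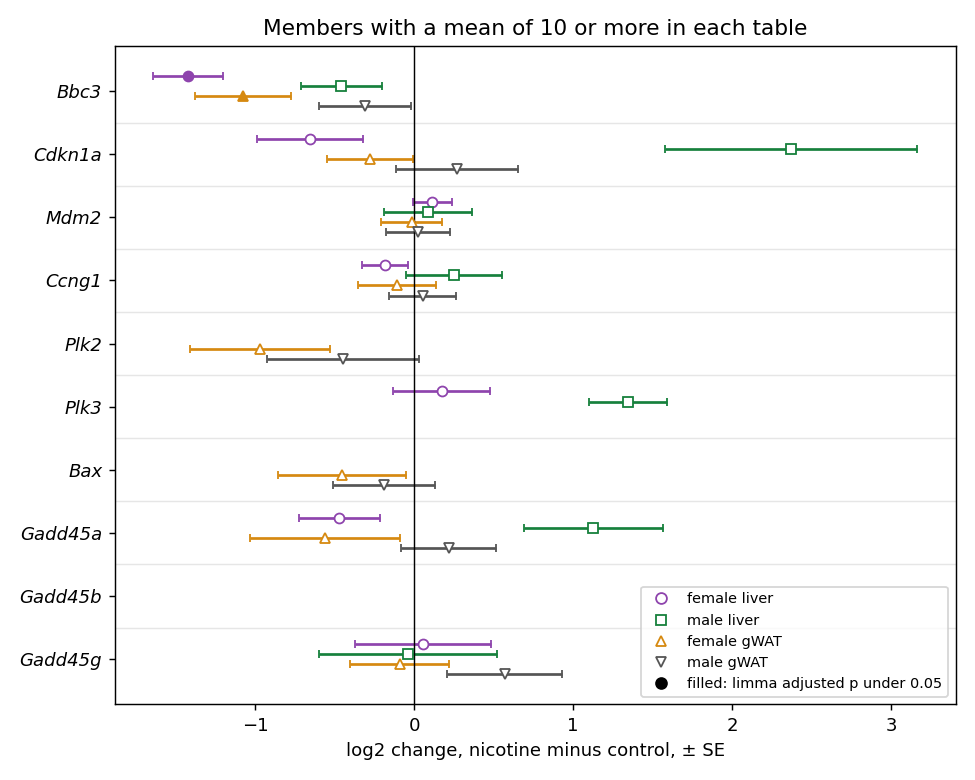
Log2 change, nicotine minus control, with its SE for each of the 10 genes in each table where its mean normalized count was 10 or more, with 1 marker shape per table and filled markers for a limma adjusted p under 0.05. The 2 filled markers are Bbc3 in female liver, at -1.42, and in female gWAT, at -1.08, and the point farthest to the right is Cdkn1a in male liver, at 2.37.

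Over the 10 genes, 7 were tested in each liver table and 8 in each gWAT table. In females 1 was called in liver and 1 in gWAT, beside 3.28% and 25.2% of all tested genes. In males 0 were called in either tissue, beside 0.055% of all tested genes in liver and 0% in gWAT. In female gWAT all 8 tested members had the lower mean in nicotine, with a median log2 change of -0.37 beside -0.03 over all tested genes. The medians were -0.18 in female liver, 0.25 in male liver and 0.04 in male gWAT, beside 0.00, 0.00 and 0.01 over all tested genes. In male gWAT, 182 genes had an unadjusted p under 0.05 and 0 were called by limma, edgeR or DESeq2.

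The female change was set against the male change by an interaction term in each tissue. In liver the difference, female minus male, was -3.02 ± 0.92 for Cdkn1a (SE, limma adjusted p = 0.102), -1.60 ± 0.49 for Gadd45a (SE, limma adjusted p = 0.109) and -1.17 ± 0.44 for Plk3 (SE, limma adjusted p = 0.189). For Bbc3 it was -0.96 ± 0.37 (SE, limma adjusted p = 0.199). Without male nicotine libraries 1 and 5, Plk3 was at -1.13 (limma adjusted p = 0.2498) and Bbc3 at -0.77 (limma adjusted p = 0.343), and Cdkn1a and Gadd45a were too low for the fit. None of the 7 members tested in liver was called, where 1.56% of tested genes were. Cdkn1a was called when male nicotine library 2 (-3.45, limma adjusted p = 0.0364) or male nicotine library 3 (-3.61, limma adjusted p = 0.0167) was left out. In gWAT none of the 8 members was called, where 8.87% of tested genes were, and the value for Bbc3 was -0.77 ± 0.44 (SE, limma adjusted p = 0.278). The fall of Bbc3 in females is therefore not shown to differ from the male change in either tissue.

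Around the 10 genes, 99 others were read in 6 lists: p53 and its regulators, other p53 target genes, the BCL-2 family, the p38 and JNK cascade, other polo-like kinases and CDK inhibitors, and immediate early genes. Their means are given ± SD over the 5 libraries of a group, or the 4 control columns of male gWAT. In female liver 60 of them were tested, 5 were lower in nicotine and 0 higher, where 1.67% of all tested genes were called lower. Nr4a1, an orphan nuclear receptor, averaged 4.73 ± 2.49 in nicotine and 22.0 ± 7.56 in control (SD, n = 5 each), with a log2 change of -2.03 ± 0.35 (SE, limma adjusted p = 0.00245) and no overlap. Junb, a component of AP-1, fell to 94.4 ± 37.7, against 199 ± 44.3 in control (limma adjusted p = 0.00449). Btg2 fell to 39.8 ± 9.68, against 70.2 ± 8.08 in control, without overlap (limma adjusted p = 0.00595).

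The other 2 were Dusp1, a phosphatase that switches off p38 and JNK, at 75.3 ± 41.6 in nicotine and 144 ± 33.6 in control, and Gdf15, at 18.9 ± 7.52 in nicotine and 38.7 ± 13.7 in control (SD, n = 5 each). Their limma adjusted p-values were 0.0289 and 0.0483. Dusp1 lost its call when any of nicotine libraries 1, 2 and 5 or control libraries 1, 2 and 3 was left out, and Gdf15 when any of nicotine libraries 1, 3 and 4 or control libraries 1, 3, 4 and 5 was. Without 1 library the highest limma adjusted p was 0.0747 for Dusp1 and 0.134 for Gdf15. No gene among the 9 tested p53 regulators, the 12 tested BCL-2 family genes or the 2 tested polo-like kinases and CDK inhibitors was called in female liver. The list medians of the log2 change ran from -0.65 (immediate early genes) to 0.12 (p38 and JNK cascade), beside 0.00 over all tested genes.

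In male liver 0 of 56 tested genes of the lists was called by limma, while DESeq2 on the recovered reads called 3 higher. Of the 3 genes of smallest limma p, Egr1, Btg2 and Gdf15, DESeq2 called Egr1 (adjusted p = 0.00339) and Btg2 (adjusted p = 0.0119) but not Gdf15 (adjusted p = 0.0617). Its remaining call was Jun, a component of AP-1, which is named because of that call. Egr1, an immediate early transcription factor, averaged 76.4 ± 36.3 in nicotine and 24.1 ± 9.95 in control (SD, n = 5 each), with a log2 change of 1.58 ± 0.36 (SE, limma adjusted p = 0.122) and no overlap. Its remaining nicotine libraries, without 1 and 5, held 36.3 to 88.0 against at most 34.8 in control libraries. Btg2 averaged 91.9 ± 35.6 in nicotine and 44.5 ± 5.43 in control, also without overlap (limma adjusted p = 0.128), and Gdf15 49.5 ± 44.1 in nicotine and 9.18 ± 7.48 in control (limma adjusted p = 0.174). Btg2 and Gdf15 were thus called lower in nicotine in female liver and had the higher nicotine mean in male liver, where limma called neither and DESeq2 called Btg2. All 8 tested immediate early genes had the higher mean in nicotine in male liver, with a median log2 change of 0.67, and both set-apart libraries lie in the nicotine group.

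In female gWAT 76 genes of the lists were tested, 8 were higher in nicotine and 10 lower, where 12.4% and 12.8% of all tested genes were called in these directions. The lists as a whole were thus called about as often as all tested genes, and the calls below are given as a description. Among the 11 tested p53 regulators 3 were higher and 0 lower, a count that was not tested against those shares. Usp7, the deubiquitinase that stabilizes Mdm2 and p53, averaged 322 ± 46.3 in nicotine and 129.6 ± 22.3 in control (SD, n = 5 each), with a log2 change of 1.31 ± 0.17 (SE, limma adjusted p = 2.07e-04). Ep300, the acetyltransferase coactivator of p53, averaged 197 ± 45.5 in nicotine and 82.3 ± 28.7 in control (limma adjusted p = 0.00141). Mdm4, the Mdm2 partner that restrains p53, averaged 191 ± 27.3 in nicotine and 133 ± 27.3 in control (limma adjusted p = 0.0444). Trp53 averaged 19.6 ± 11.5 in nicotine and 13.6 ± 9.54 in control (SD, n = 5 each).

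Among the 24 other p53 targets tested in female gWAT, 4 were higher and 3 lower. The DNA repair genes Ercc5 (56.5 ± 14.4 in nicotine and 16.3 ± 5.52 in control) and Xpc (120.1 ± 42.6 in nicotine and 51.7 ± 14.2 in control) rose. Rrm2b, a ribonucleotide reductase subunit, and Tnfaip8, an apoptosis regulator, also rose, at 31.5 ± 6.69 in nicotine and 13.6 ± 2.34 in control, and 154.7 ± 11.2 in nicotine and 98.1 ± 23.0 in control. These 4 had limma adjusted p-values of 6.49e-04, 0.00388, 0.00429 and 0.0118. Rps27l (143 ± 20.3 in nicotine and 212 ± 48.5 in control), Sesn1 (41.7 ± 16.3 in nicotine and 68.1 ± 16.3 in control) and Cd82 (16.4 ± 2.43 in nicotine and 28.1 ± 7.20 in control) fell, with limma adjusted p-values of 0.0350, 0.0399 and 0.0399.

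Of the remaining lists in female gWAT, the immediate early genes Junb, Jun, Egr1 and Ier3 fell and Jund rose. Jund averaged 137 ± 50.1 in nicotine and 24.7 ± 4.55 in control (SD, n = 5 each), 5.55-fold higher in nicotine (limma adjusted p = 1.09e-04), and Junb 47.0 ± 27.2 in nicotine and 136 ± 45.04 in control (limma adjusted p = 0.00465). Bad, another BH3-only protein, fell to 40.4 ± 13.6, against 92.4 ± 14.9 in control (limma adjusted p = 0.00199), the only call among 12 tested BCL-2 family genes. The CDK inhibitors Cdkn1c (26.5 ± 7.66 in nicotine and 59.0 ± 15.6 in control) and Cdkn1b (47.7 ± 15.3 in nicotine and 81.0 ± 18.3 in control) fell, with limma adjusted p-values of 0.00711 and 0.0302. The p38 and JNK cascade had 0 calls among 13 tested genes, the smallest limma adjusted p being 0.0523. Cd82, Cdkn1b, Ier3, Mdm4, Rps27l and Sesn1 lost their calls when single libraries were left out, in 8, 6, 1, 7, 7 and 7 of 10 such fits, with highest limma adjusted p-values of 0.104, 0.0757, 0.0507, 0.0980, 0.0804 and 0.0983. Mdm4, Sesn1 and Cd82 also lost their calls with no filter on low values, Mdm4 and Sesn1 with edgeR, and Mdm4 and Cd82 with quantile normalization.

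In male gWAT 0 of 75 tested genes of the lists was called. Among those of smallest p were Gdf15, at 15.6 ± 4.63 in nicotine (SD, n = 5) and 8.12 ± 3.41 in control (SD, n = 4), and Tigar, a fructose bisphosphatase, at 17.8 ± 4.67 in nicotine and 11.1 ± 1.02 in control. Their limma adjusted p-values were both 1.00.

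Levels between tissues and sexes were read in the control libraries as RPM, the recovered reads scaled to 1000000 per library, without a test, since the tables were normalized separately. Each level is compared only with other levels of the same gene. Female gWAT had the higher mean than female liver for 8 of the 10 genes, 4 of them without overlap. Male gWAT had the higher mean than male liver for 9, with 6 not overlapping. The 6 include Gadd45b, with 0 to 2 reads per male liver control library. In each sex 1 more gene, Plk3, was without overlap in the other direction. Counting both directions, 57% and 60.5% of all genes compared did not overlap, so these counts do not set the 10 genes apart. Plk3 ran the other way, at 1.94 ± 1.64 RPM in female gWAT and 14.8 ± 6.24 in female liver (SD, n = 5 each), and at 2.02 ± 1.22 in male gWAT (SD, n = 4) and 22.4 ± 6.96 in male liver (SD, n = 5). Bax also did not overlap between the tissues, being higher in gWAT in both sexes, but its liver controls hold only 1 to 6 reads per library in females and 2 to 7 in males, so no fold is given.

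Cdkn1a was the 1 gene of the 10 whose control levels did not overlap between the sexes of a tissue, in liver. There 12% of all genes did not overlap, so 1 of 10 is no more than that share. Cdkn1a stood at 10.3 ± 4.36 RPM in female liver and 2.20 ± 0.32 in male liver (SD, n = 5 each). The ratio of 4.67 rests on 3 to 5 reads per male library. In gWAT it stood at 34.4 ± 8.10 in females (SD, n = 5) and 23.0 ± 4.10 in males (SD, n = 4), with overlap, where 7.51% of genes did not overlap. Over all 8 groups the order of its means began with male liver nicotine (37.7 RPM, from 2.17 to 87.8 across libraries). The gWAT groups followed, then female liver control and female liver nicotine (6.54), and last male liver control. Only the steps from gWAT to female liver control and from female liver nicotine to male liver control were free of overlap.

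For Bbc3 every neighbouring pair of the 8 groups overlapped, from 61.9 ± 12.0 RPM in female liver control to 16.8 ± 5.99 in female gWAT nicotine (SD, n = 5 each). The 4 control groups held the 4 highest means and the 4 nicotine groups the 4 lowest. This order repeats the nicotine-control differences on which the gene was selected, so nothing is drawn from it. Plk3 ordered from male liver nicotine (63.3 ± 22.0 RPM) over male liver control (22.4), female liver nicotine (17.8) and female liver control (14.8) to the 4 gWAT groups at 1.12 to 2.91. Male liver nicotine did not overlap with male liver control, nor female liver control with male gWAT nicotine, the highest gWAT group, while the other neighbours overlapped. Mdm2, Ccng1, Bax, Gadd45a and Gadd45b held their 4 highest means in the 4 gWAT groups.

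**Figure D5:**
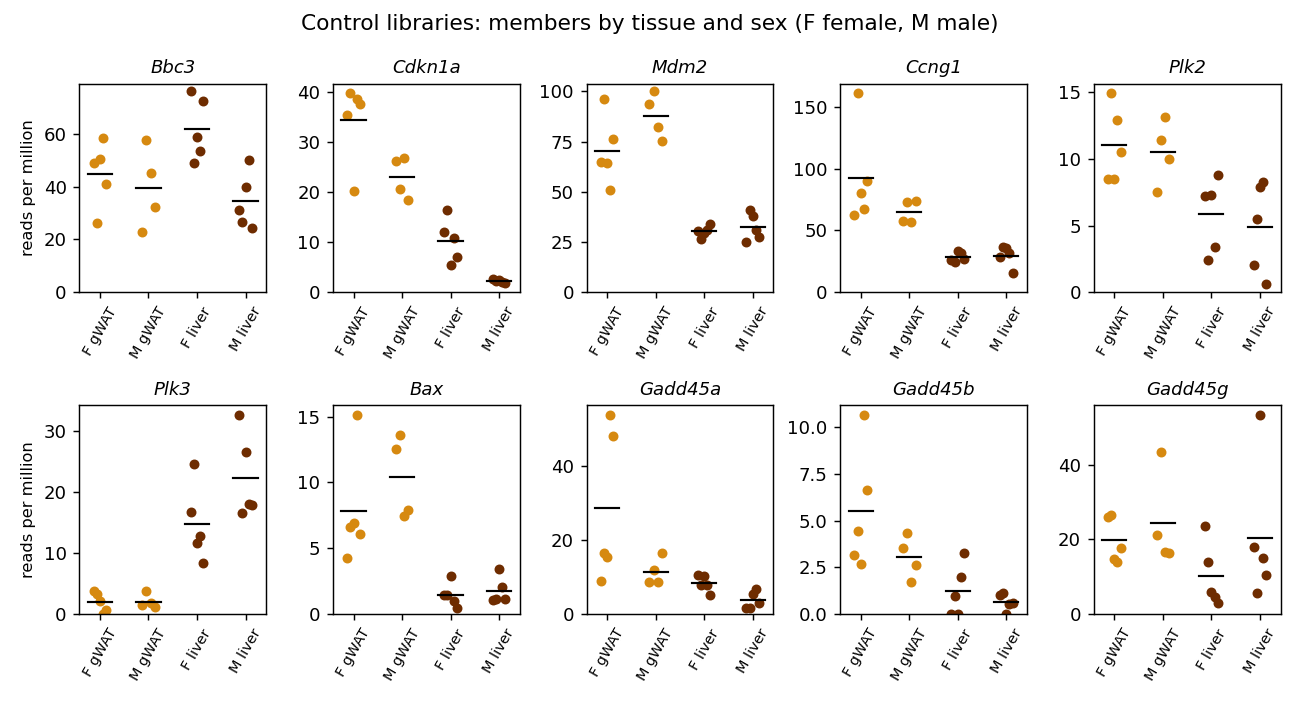
RPM of the 10 genes in each control library, with female gWAT, male gWAT, female liver and male liver from left to right, points for libraries and black bars for group means (n = 5, and 4 in male gWAT). Plk3 is the gene with both liver groups above both gWAT groups, and Cdkn1a has its lowest values in male liver, at 1.74 to 2.55 RPM.

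Whether the genes vary together among libraries of 1 group was read after removing the group means, which takes out the nicotine difference. The 6 members tested in all 4 tables give 15 pairs over 39 libraries. None passed a permutation test after Benjamini-Hochberg adjustment, and 0 had an unadjusted p under 0.05. The highest was Cdkn1a with Mdm2, at Pearson r = 0.54 (permutation p = 0.0837, adjusted 0.786) and Spearman rho = 0.34 (permutation p = 0.0837, adjusted 0.737). By table, r was 0.83 in male and 0.16 in female liver, and -0.40 in male and 0.31 in female gWAT. It was 0.40 without the 2 libraries farthest from the median of Cdkn1a. Without nicotine libraries 1 and 5 of male liver, r was -0.02, so the relation rests on those libraries.

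The genes most like Bbc3 across the 10 female liver libraries, by Pearson r of the values minus group means, were H2az1 (0.93), Cop1 (0.91) and Ptk2b (0.91), among 6769 genes. Those most like Plk3 across the 10 male liver libraries were Zzef1 (0.93), Dnajc13 (0.91) and Farp2 (0.89), among 6755 genes. They are the extremes of many correlations over few libraries and are given without a test. None of the 6 differed between nicotine and control in its own table, with limma adjusted p-values of 0.665, 0.724 and 0.992 for the genes like Bbc3 and of 0.373, 0.351 and 0.367 for those like Plk3.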

How the data were processed

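Liver and gWAT samples of 8 groups, 40 in the labels, were read from 4 tables with 39 library columns. The 4 control columns of male gWAT could not be tied to the 5 labelled samples and served as unnumbered control replicates, where the design had foreseen numbered ones. The members and lists were chosen with earlier results of these data known. Per the submitters' processing notes, reads passed through cutadapt, STAR and DESeq2 on mm10, and neither the counting step nor the annotation nor the use of strand is given in the sources used here. The deposited values are a signal: counts that the authors divided by DESeq2 size factors within each table. The authors' base mean, log2 fold change, p-value and adjusted p-value stand beside them, per the file headers. No gene has a total under 10 reads in its table.

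limma 3.58.1 (R 4.3.3, mean trend) was fitted to each table alone, on log2(normalized count + 1) of all genes whose table mean reached 10, with p-values adjusted by Benjamini-Hochberg over these genes and called under 0.05. One model per tissue with a sex-by-exposure term compared the sexes. Whole reads were recovered in 100% of values within 0.1 reads, and edgeR 4.0.16, DESeq2 1.42.0 and RPM used them. Depth was 1543208 to 2239073 reads per library, so values of a few reads carry large counting error. Named genes were the 10 members, every called gene of the 6 lists (or the 3 of smallest p where fewer than 3 were called) and the 3 most correlated genes. Some results that this rule names are not reported here. Genes named for nicotine libraries 1 and 5 of male liver, and Trp53, were chosen after their values were seen. Covariation used SciPy 1.17.1 (Python 3.11.15) with 100000 permutations within groups. Gene positions come from GENCODE M21 on GRCm38, and promoters from RefSeq on GRCm38.p6, in which all 10 symbols matched.

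Alternatives were pseudocounts of 0.5 and 5, no filter, a mean of 50 or more, quantile normalization, both count tests, a block for the replicate number, and fits without single libraries or those with other tissues' transcripts. Those without single libraries in the interaction, without the 2 male gWAT libraries richest in epididymis transcripts, and without nicotine libraries 1 and 5 of male liver and no filter were added after seeing the data. The fits were tested on simulated data.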

Additional observations from a re-analysis of the deposited data

Results flagged for a closer look

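Over the 10 genes and 8 groups, 80 groups of values were examined for a single library far from the others, and 7 showed one, where chance alone gives about 4. In female liver, Mdm2 was 54.5 normalized counts in nicotine library 4 and 66.1 to 68.8 in the other 4 nicotine libraries. Gadd45b was 3.93 in nicotine library 1 and at most 1.09 in the other 4, a difference of a few reads.

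In male liver, Gadd45g was 96.6 in control library 3 and 10.5 to 34.6 in the other controls. In female gWAT, Plk3 was 7.25 in nicotine library 2 and at most 1.88 in the other nicotine libraries. Ccng1 was 268 in control library 2, which held 18966 normalized counts of muscle markers, and 109.9 to 135 in the other controls. Bax was 24.7 in control library 4 and 7.84 to 11.4 in the other controls. In male gWAT, Mdm2 was 220.2 in nicotine library 4 and 128 to 152 in the other nicotine libraries.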

How the results depend on the processing

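Bbc3 kept its direction and its call in female liver (limma, edgeR or DESeq2 adjusted p from 4.75e-07 to 0.00507) and in female gWAT (0.00537 to 0.0485) under every alternative run, including each left-out library. The count of members called in male liver was 2 with DESeq2 (Plk3 and Cdkn1a) and 0 to 1 without single libraries, against 0. It was 1 to 2 without single libraries in female gWAT, and 0 to 1 for the liver interaction. The 1 was Cdkn1a, in fits that keep male nicotine libraries 1 and 5. Of the genes of the lists, 3 were called in female liver at a mean of 50 or more, 3 without control library 4 and nicotine library 5, and 3 to 5 without single libraries, against 5; in male liver DESeq2 called 3, against 0. Dusp1 in female liver also lost its call with DESeq2, Gdf15 with quantile normalization, and both without those 2 libraries. The calls in female liver were not all lower in every fit. DESeq2 called 1 gene of the lists higher and 3 lower, and limma without nicotine library 5 called 1 higher and 4 lower. No member that passed the threshold reversed. Cdkn1a in male liver ranged from 0.82 to 3.84 (log2), and Plk3 from 1.17 to 1.50.

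Over all genes, male liver had 0 calls at a mean of 50 or more, 3 with edgeR, 186 with DESeq2 and 0 to 16 without single libraries, against 5. Female liver had 181 without its 2 libraries with muscle transcripts and 185 to 329 without single libraries, against 301. The liver interaction ranged from 71 to 280 without single libraries, against 136, and the gWAT interaction from 448 to 1122, against 891. Same-numbered nicotine and control libraries of a table correlated at -0.28 to 0.17. These values do not show a pairing by number, and they cannot exclude one. With the replicate block, 341 genes were called in female liver, 0 in male liver and 2011 in female gWAT, the members called were 1, 0 and 1, and the genes of the lists 5, 0 and 13, with Cd82, Cdkn1b, Mdm4, Rps27l and Sesn1 no longer called in female gWAT. Plk3 in male liver then had an adjusted p of 0.0592. Male gWAT control columns carry no usable number, so no block was run there. Members under about 10 reads (Bax, Gadd45b and Plk2 in liver, Plk3 and Gadd45b in gWAT) are too shallow for a test of nicotine against control.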
